A study of Mus musculus with 9 samples.

Results

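Left ventricles of male mice labelled Lrat-/- were compared between a vitamin A deficient (VAD) and a vitamin A sufficient (VAS) diet, with 3 arrays on each diet. These 6 of the 9 arrays of the series were selected by their titles, and all 21803 genes that could be named were tested. Both groups carry the label Lrat-/- and were killed after 50 days on their diet. The VAS diet was the VAD diet with retinol palmitate added at 250000 U/kg. The other 3 arrays, from wild-type (WT) males on the VAS diet, enter through the shared estimate of spread and are given last, as a description. No wild-type mice on the VAD diet are among the samples, so a diet effect cannot be compared between genotypes. The heart was immersed in a preservative, the left ventricle was separated from the right along the septum, and 1 array was run per sample. The labels give no strain, no age, no cell type in which Lrat is lost and no statement that the samples came from separate animals, so the p-values measure the spread between these samples, which may be technical.

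Vitamin A reaches the heart as retinol and as esters in lipoproteins. Cells store it as retinyl esters, made by lecithin retinol acyltransferase (Lrat), or oxidize it to retinoic acid, the ligand of the nuclear receptors RARα, RARβ and RARγ, which bind DNA as partners of RXR receptors. Genes with strong retinoic acid response elements, such as Rarb, Dhrs3, Stra6 and the Cyp26 hydroxylases, are commonly read as gauges of retinoic acid in a tissue. In the embryo retinoic acid shapes the heart chambers and the coronary vessels.

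The array medians lay between 6.38 and 6.43 (log2), and pairs of arrays correlated at 0.994 to 0.9964 within a diet and 0.9932 to 0.997 between diets, over genes. On the first principal component of the 6 arrays (28.4% of the variance) VAS array 3 stood at -20.65 and VAS array 2 at -8.4, while VAS array 1 (4.06) lay nearer to the 3 VAD arrays (6.31 to 10.01). On the second component (26.4%) VAS array 2 stood at -19.41 and the other 5 arrays between -8.9 and 9.19. Results that rest on VAS arrays 2 and 3 are therefore also given without each of them in turn, and no fit left out both together. Ventricular genes were high over the 9 arrays, with means of 13.9 for the ventricular myosin light chain Myl2, 13.1 for Myh6 and 14.2 for Actc1. The 95th percentile of the negative control probe sets was 7.53. Of 10 atrial markers 5 lay under it, among them Sln (5.16) and Bmp10 (5.02), and 5 above it, namely Nppa (11.10), Pam (11.02), Myl4 (8.87), Tbx5 (8.75) and Myl7 (7.69). Of 14 skeletal muscle markers 3 lay above it, Ckm (13.55), Acta1 (10.999) and Tnni2 (7.78), while the others, such as the fast myosins Myh1 (5.10), Myh2 (5.61) and Myh4 (5.38), lay under it. Genes with a mean under 7.53 are called dim below, and the size of a difference between dim signals is uncertain.

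Lrat itself had log2 signals of 6.84, 6.78 and 6.96 on the VAD arrays, 7.29, 7.34 and 7.38 on the VAS arrays and 5.81, 5.78 and 5.73 on the WT arrays. The targeted gene was thus dim in all groups and lowest in wild type, which goes against the genotype label, and the sources used here do not say whether its probes (probe set 10498978) fall inside the deletion. Between the diets Lrat was lower on VAD by 0.48 ± 0.07 (SE) on the log2 scale, and the groups did not overlap. It had the lowest unadjusted p-value of all genes in limma (5.59e-05, adjusted p = 0.463).

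No gene passed an adjusted p of 0.05 in limma, which makes 0.0% of the genes tested, and the lowest adjusted p was 0.463. At an unadjusted p under 0.05, 475 genes (2.18%) were higher and 458 (2.1%) lower on the VAD diet, together 933 genes or 4.28%. Of these 933, 118 higher and 87 lower genes also had a p under 0.05 without each of the 6 arrays in turn. With only the 6 arrays in the model, 629 genes (2.88%) were higher and 719 (3.3%) lower. With same-numbered arrays treated as pairs among the 6 arrays, 957 genes (4.39%) were higher and 1011 (4.64%) lower at that level, again with 0 past the adjusted threshold. The 3 VAD arrays all lay above the 3 VAS arrays for 950 genes (4.36%) and all below for 1119 (5.13%), together 9.49%. The median difference over all genes was -0.004, with 48.4% of genes above 0 and 51.5% below. The median absolute difference was 0.0712 and the median SE 0.0978. Of 13 genes that differed by more than 2-fold, 10 were higher and 3 lower. The authors' deposited table held 1740 of 35556 probe sets (4.89%) at p under 0.05 for this pair of groups, 808 higher and 932 lower, and 0 after Benjamini-Hochberg adjustment. In what follows a called gene is one with an unadjusted p under 0.05, and no gene named passed adjustment. If no gene differed between the diets, a share of 0.05 of genes would be expected under that level. The 4.28% in the 9-array fit is not above it, so the number of calls does not by itself show a diet effect. Groups of 3 arrays can also lie apart with no diet effect.

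**Figure D1:**
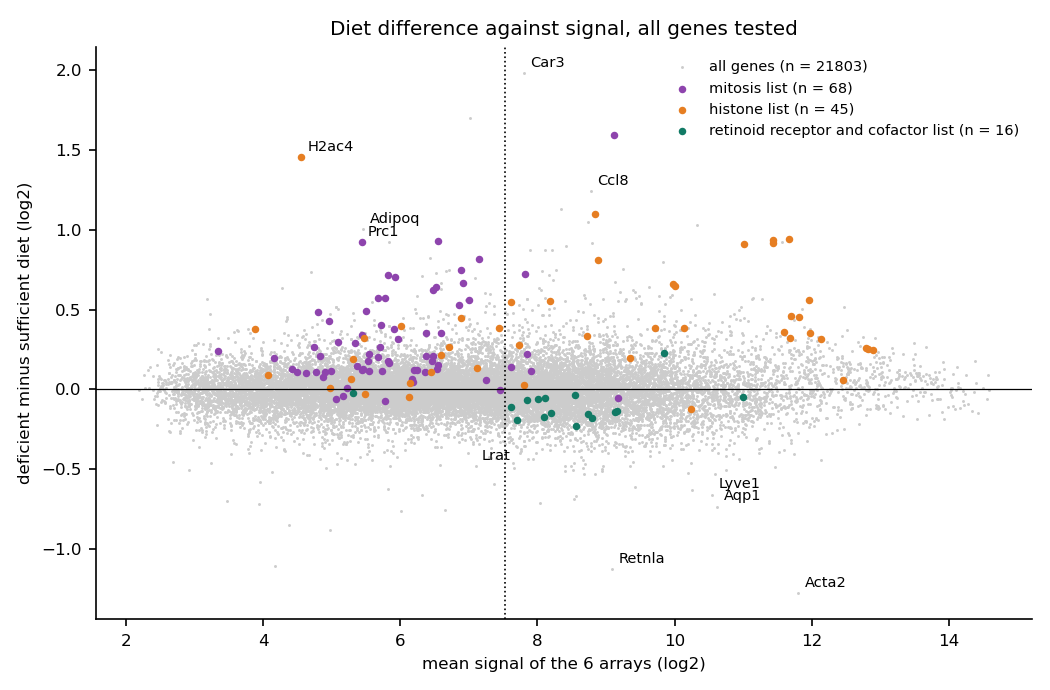
Each point is 1 of the 21803 genes. The horizontal axis is its mean log2 signal over the 6 arrays, and the vertical axis is the log2 difference of the VAD minus the VAS arrays. Purple marks 68 mitosis genes, orange 45 histone genes and green 16 retinoid receptors and cofactors, and the dotted line is the 95th percentile of the negative controls (7.53). Most mitosis genes lie above 0 and left of the line, while 28 of the 45 histone genes have signals above it.

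The genes were described in 50 lists of pathways, gene families and cell type markers. Those whose members lay highest on the VAD diet were histones (median difference 0.336), red blood cell markers (0.334), resident macrophage markers (0.227) and mitosis genes (0.206). The lists with the lowest medians were endothelial markers (-0.145), retinoid receptors and cofactors (-0.122), clock genes (-0.121) and vascular growth factors with their receptors (-0.118). The plot of list medians shows in addition how far each median moves when 1 of the 6 arrays is left out. Over all genes 4.28% were called. The counts called are near that share for interferon, fatty acid, matrix, insulin, sterol and heat shock genes and for cardiac transcription factors. Other lists near it include retinoid receptors and cofactors, replication genes, chemokines and energy nuclear receptors. Respiratory complexes III and IV with ATP synthase, and sodium, calcium and pacemaker channels, are near it too. Called members of these lists are given as single values and are not a result about the list.

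**Figure D2:**
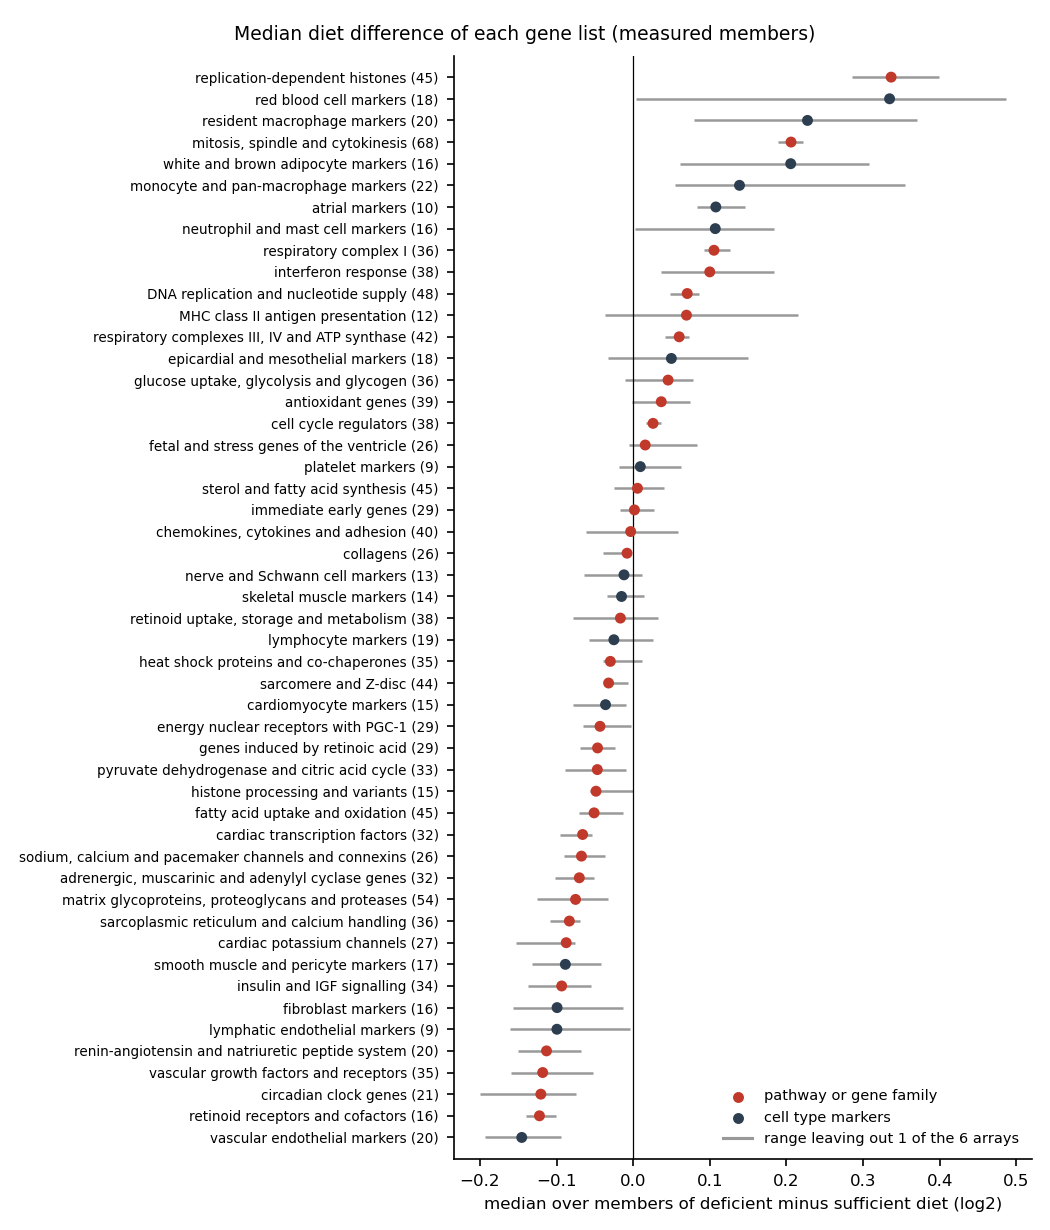
Each row is a gene list, with its number of measured members, and the point is the median over members of the log2 difference, VAD minus VAS. Red points are pathways or families and dark points are cell type markers. The grey line runs from the lowest to the highest median when 1 of the 6 arrays is left out, which for red blood cell markers reaches 0.004 and for histones stays between 0.286 and 0.399.

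Retinoid receptors and their cofactors lay lower on the VAD diet in 15 of 16 cases, with a median difference of -0.122. Of the 16 members 1 was called, which is near the share called over all genes (4.28%). Groups without overlap numbered 6, all lower, against 5.13% of all genes. With pairing 3 were called lower, against 4.64% of all genes. Relative to the mean of the VAS arrays, the median member stood at -0.05, -0.15 and -0.14 on the VAD arrays. On the WT arrays it stood at 0.13, -0.04 and -0.12, so VAD and WT arrays overlapped. Rarb, the receptor gene that retinoic acid itself induces, had log2 signals of 8.45, 8.51 and 8.36 on the VAD arrays, 8.70, 8.72 and 8.60 on the VAS arrays and 8.50, 8.44 and 8.68 on the WT arrays. Every VAD value was below every VAS value, by 0.23 ± 0.08 on average (unadjusted p = 0.02), and the VAD values overlapped those of wild type. Rarg, which encodes RARγ, had 7.98, 8.02 and 8.05 on the VAD arrays, against 8.15, 8.19 and 8.22 on the VAS arrays. Its groups did not overlap either, and the difference of -0.17 ± 0.08 missed the level of a call. Rxra, which encodes the partner receptor RXRα, was 8.78, 8.70 and 8.65 on the VAD arrays and 8.88, 8.87 and 8.91 on the VAS arrays, a difference of -0.18 ± 0.10. The VAD arrays were also wholly below the VAS arrays for the orphan receptor Rora (-0.19 ± 0.10), the coactivator Ncoa3 (-0.15 ± 0.08) and the Mediator subunit Med1 (-0.13 ± 0.07). Rara differed by -0.06 ± 0.06. The count of called receptors and cofactors was 0 without VAD array 3, VAS array 1 or VAS array 2 and 2 without VAS array 3.

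The Rarb promoter is shown because its retinoic acid response element is the textbook target of RAR and RXR. The sequence is from RefSeq, build GRCm38.p6, minus strand, chr14:16575427-16575726, and runs 5′ to 3′ from 250 bases before the start site to 50 after it. Capitals mark a direct repeat with 5 bases between its arms.
Rarb: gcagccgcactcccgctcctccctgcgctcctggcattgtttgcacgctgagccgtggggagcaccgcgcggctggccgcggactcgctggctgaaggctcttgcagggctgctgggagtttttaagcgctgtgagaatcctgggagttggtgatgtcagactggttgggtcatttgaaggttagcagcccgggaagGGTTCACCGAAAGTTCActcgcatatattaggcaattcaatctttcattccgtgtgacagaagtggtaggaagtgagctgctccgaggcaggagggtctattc
Capitals begin 53 bases before the start site. The letters searched were GGTTCA, then 5 bases of any kind, then AGTTCA, on both strands, and 2 of 27025 genes (0.0074%) held them in such a window. These arms are those of the Rarb element itself, so Rarb had to be found. The share therefore does not tell how rare response elements are. With AGGTCA as both arms, 3 genes (0.0111%) held the repeat.

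Genes for uptake, storage and metabolism of retinoids were split, with 17 of 38 measured members higher and 21 lower and a median of -0.017, which was -0.078 without VAD array 2 and 0.032 without VAD array 3. Called were 2 higher and 3 lower. Dhrs3, a retinaldehyde reductase that retinoic acid induces, had 9.56, 9.38 and 9.55 on the VAD arrays, 9.98, 9.61 and 9.71 on the VAS arrays and 9.99, 9.77 and 10.01 on the WT arrays. Its VAD values were the lowest of all 9, and the diet difference was -0.27 ± 0.11 (unadjusted p = 0.036). Lpl, the lipoprotein lipase that lets tissues take up retinyl esters and fatty acids from lipoproteins, was 12.27, 12.14 and 12.05 on the VAD arrays and 12.40, 12.43 and 12.45 on the VAS arrays. The groups did not overlap, with a difference of -0.27 ± 0.10 (unadjusted p = 0.028). Retsat, the retinol saturase, was higher, at 8.85, 9.13 and 8.85 on the VAD arrays and 8.63, 8.79 and 8.53 on the VAS arrays (0.29 ± 0.13, unadjusted p = 0.0445). The carotenoid oxygenase Bco2 was higher by 0.36 ± 0.10 at dim signals of 5.54 to 5.65 on the VAD arrays and 5.03 to 5.44 on the VAS arrays. Stra6, the membrane receptor for circulating retinol, was dim and differed by -0.20 ± 0.10. The retinoic acid hydroxylase Cyp26b1 was dim too, and differed by -0.15 ± 0.08. Rbp7, a retinol binding protein of endothelium and fat, had 11.41, 11.64 and 11.70 on the VAD arrays and 11.48, 11.10 and 11.05 on the VAS arrays. Its groups overlapped through VAS array 1, and the difference was 0.37 ± 0.32. The count called higher in the list was 1 without VAD array 2, VAS array 1 or VAS array 3. Of the retinoid genes called, Lrat and Bco2 were called without each of the 6 arrays in turn, and Rarb, Dhrs3, Lpl, Retsat and Hoxa2 were not.

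Among 29 genes that retinoic acid induces, 10 were higher and 19 lower on the VAD diet, with a median of -0.046 that ranged from -0.069 (without VAS array 3) to -0.024 (without VAS array 2). Called were 4, all lower, namely Rarb, Dhrs3, Lrat and the dim homeobox gene Hoxa2 (-0.18 ± 0.07). The first 3 are also members of the lists above. Lrat is the targeted gene and was lowest in wild type, so its call cannot be read here as a gauge of retinoic acid. Of the 4, Lrat alone was called without each of the 6 arrays in turn. For the 11 of these genes with 6-array means above the negative controls the median was -0.112. The count called lower was 2 without VAS array 1, when 1 was called higher, and 3 without each of the other 5 arrays.

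Genes of mitosis, spindle and cytokinesis lay higher on the VAD diet in 63 of 68 cases, with a median difference of 0.206 (1.15-fold). Of the 68, 25 were called and 33 had groups without overlap, all higher. All but 6 of the 68 had 6-array means under 7.53. Prc1, which bundles microtubules of the central spindle, had log2 signals of 6.04, 5.79 and 5.87 on the VAD arrays, 4.97, 4.95 and 5.01 on the VAS arrays and 5.36, 5.63 and 4.92 on the WT arrays. The VAD values lay above all others, by 0.92 ± 0.15 over VAS (unadjusted p = 0.000175), and VAS and WT overlapped. The authors' deposited ratio for Prc1 was 1.85. Anln, an actin-binding protein of the contractile ring, had 6.25, 6.14 and 6.44 on the VAD arrays and 5.71, 5.57 and 5.43 on the VAS arrays (0.71 ± 0.13). Tpx2, a spindle assembly factor, was higher by 0.57 ± 0.11, and Kif23, a kinesin of the central spindle, by 0.53 ± 0.12. Both had VAD arrays wholly above VAS arrays.

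The mitotic kinases showed the same order of groups. Plk1, which acts at centrosomes and kinetochores, had 6.63, 6.74 and 7.0 on the VAD arrays and 6.39, 5.86 and 6.25 on the VAS arrays (0.63 ± 0.14, unadjusted p = 0.00163). Cdk1, the kinase that drives entry into mitosis, was 7.49, 7.12 and 7.11 on the VAD arrays, 6.72, 6.42 and 6.59 on the VAS arrays and 7.02, 6.96 and 6.47 on the WT arrays. Its VAD arrays lay above the other 6, by 0.66 ± 0.16 over VAS (unadjusted p = 0.0023). Ccna2, the cyclin A that Cdk1 and Cdk2 use, was 7.16, 7.05 and 6.84 on the VAD arrays, 6.65, 5.83 and 5.79 on the VAS arrays and 6.70, 6.92 and 5.71 on the WT arrays (0.93 ± 0.31 over VAS). Cks2, which binds cyclin-dependent kinases and belongs to none of the lists, was above the negative controls, at 8.35, 8.39 and 8.28 on the VAD arrays, 7.92, 7.77 and 7.43 on the VAS arrays and 7.88, 7.94 and 7.75 on the WT arrays. That gene was higher on VAD by 0.64 ± 0.12 (1.56-fold, unadjusted p = 0.000335), with no overlap with VAS or WT.

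Over the arrays, the median mitosis gene stood at 0.24, 0.23 and 0.20 on the VAD arrays, 0.07, -0.004 and -0.008 on the VAS arrays and 0.07, 0.17 and -0.02 on the WT arrays, relative to the mean of the VAS arrays. The 3 VAD arrays were above the other 6, and WT array 2 came nearest to them. The count of called members was 18 without VAS array 3, 23 without VAS array 2 and 20 without VAD array 1, and the median kept between 0.189 and 0.222. Without each of the 6 arrays in turn, 17 of the 25 were called every time, Prc1, Anln, Tpx2, Kif23, Plk1 and Cdk1 among them. Of the 68, 10 were called when only genes with a mean of 6 or more were fitted, and 1 when only genes above the negative controls were. Among the 6 brighter members 5 were higher and 1 lower, with a median of 0.182. Macrophage markers also lay higher on the VAD arrays, as given below, and their part in the mitosis result was not tested.

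**Figure D3:**
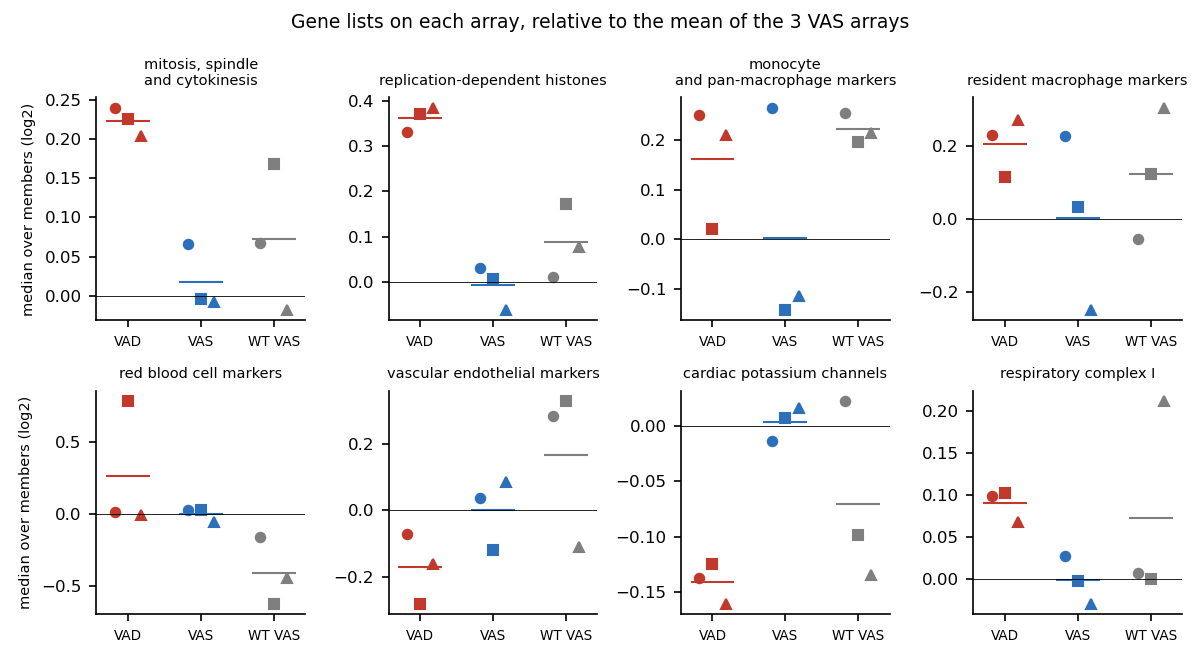
Each panel is a gene list and each symbol an array (circle 1, square 2, triangle 3), with VAD arrays left, then VAS and WT arrays. The vertical axis is the median over members of the log2 signal minus the mean of the 3 VAS arrays, and bars are means of 3 arrays. Mitosis genes, histones and potassium channels separate the VAD from the VAS arrays, while monocyte markers on VAS array 1 reach the VAD level and red blood cell markers are high on VAD array 2 alone.

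Promoters of Prc1, Plk1 and Cdk1 are shown because cell cycle genes that peak in mitosis are known to carry a CCAAT box and a cell cycle homology region (CHR, TTTGAA) near the start site. Sequences are from RefSeq, GRCm38.p6, 5′ to 3′ along the gene, from 250 bases before to 50 after the start site, and capitals mark CCAAT, its reverse complement ATTGG and TTTGAA. Prc1 lies at chr7:80294201-80294500 (plus strand), Plk1 at chr7:122159185-122159484 (plus strand) and Cdk1 at chr10:69352863-69353162 (minus strand).
Prc1: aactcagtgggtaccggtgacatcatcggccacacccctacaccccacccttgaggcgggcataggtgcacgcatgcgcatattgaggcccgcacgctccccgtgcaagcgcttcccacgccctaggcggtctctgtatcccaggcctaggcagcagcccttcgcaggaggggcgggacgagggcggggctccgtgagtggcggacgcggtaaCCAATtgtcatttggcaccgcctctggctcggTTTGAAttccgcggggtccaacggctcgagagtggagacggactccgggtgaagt
Plk1: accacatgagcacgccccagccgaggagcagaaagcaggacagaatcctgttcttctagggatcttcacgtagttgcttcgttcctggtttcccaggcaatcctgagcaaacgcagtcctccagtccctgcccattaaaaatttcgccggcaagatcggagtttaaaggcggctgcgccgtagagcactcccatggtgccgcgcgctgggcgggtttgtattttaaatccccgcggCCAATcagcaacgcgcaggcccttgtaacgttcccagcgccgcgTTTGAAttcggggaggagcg
Cdk1: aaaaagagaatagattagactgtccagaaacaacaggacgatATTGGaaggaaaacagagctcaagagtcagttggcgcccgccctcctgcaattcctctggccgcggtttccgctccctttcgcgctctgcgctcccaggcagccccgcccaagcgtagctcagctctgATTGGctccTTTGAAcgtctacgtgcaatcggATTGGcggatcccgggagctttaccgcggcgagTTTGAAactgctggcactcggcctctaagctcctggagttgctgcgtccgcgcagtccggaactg
In Prc1 the TTTGAA began 5 bases before the start and CCAAT 37 bases before it, in the first of 2 listed start sites. Plk1 held CCAAT 14 bases before its start and TTTGAA 30 bases after it. In Cdk1 TTTGAA began 71 and 15 bases and ATTGG 208, 80 and 48 bases before the start. Among 57 mitosis genes with a promoter in the table, 32 (56.1%) held both motifs on either strand, 41 (71.9%) TTTGAA and 38 (66.7%) CCAAT. Over all 27025 genes the shares were 7.97% for both, 20.2% for TTTGAA and 41.1% for CCAAT, while of 39 replication genes 12.8% held both, 15.4% TTTGAA and 66.7% CCAAT. Of 39 histone genes 35.9% held both and 38.5% TTTGAA. The motifs did not overlap each other in the promoters shown.

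Genes of DNA replication and nucleotide supply lay higher in 41 of 48 cases, with a smaller median of 0.071. Called were 3, all higher, which is near the share called over all genes (4.28%), and with pairing 6. Rrm2, the small subunit of ribonucleotide reductase, had dim signals of 6.86, 6.83 and 6.83 on the VAD arrays, 6.52, 6.30 and 6.38 on the VAS arrays and 6.68, 6.57 and 6.47 on the WT arrays. The VAD arrays were above the other 6, by 0.44 ± 0.08 over VAS (unadjusted p = 0.000347). Mcm7, part of the replicative helicase, was higher by 0.25 ± 0.11 and Rfc3, a subunit of the clamp loader, by 0.41 ± 0.18. The count of called members was 5 without VAS array 1 and 1 without VAD array 1, VAD array 2 or VAS array 3. Of 38 regulators of the cell cycle 26 were higher, with a median of 0.026 (0.016 without VAD array 1), and 3 were called, all higher: the phosphatase Cdkn3 (0.73 ± 0.21), the transcription factor E2f1 (0.28 ± 0.11) and Lin9 (0.20 ± 0.08), a subunit of the complex that acts at CHR elements. The count of called regulators was 1 without VAD array 2 or VAS array 3, and 5 without VAS array 1.

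Histone genes held the largest list median. These are mostly the clustered genes whose transcripts are made in S phase and end in a stem loop in place of a poly(A) tail, to package newly copied DNA. Of 45 measured, 42 were higher on the VAD diet and 3 lower, with a median of 0.336 (1.26-fold). Called were 25, all higher, and 28 had groups without overlap. In contrast to the mitosis genes, 28 of the 45 had signals above the negative controls, and 27 of those 28 were higher, with a median of 0.385. H2bc14, for histone H2B, had log2 signals of 10.27, 10.32 and 10.32 on the VAD arrays, 9.67, 9.81 and 9.45 on the VAS arrays and 9.56, 9.91 and 9.66 on the WT arrays. The VAD arrays lay above the other 6, by 0.66 ± 0.11 over VAS (unadjusted p = 0.0002).

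By class, the H3 genes had the highest median, 0.912 over 6 genes, of which 4 were called. H3c4 was 12.21, 12.16 and 12.05 on the VAD arrays, 11.54, 11.04 and 11.01 on the VAS arrays and 11.40, 11.92 and 11.41 on the WT arrays. It was higher on VAD by 0.94 ± 0.17 (1.92-fold over VAS, unadjusted p = 0.000307), and WT array 2 came nearest to the VAD arrays. H3c1, H3c11 and H3c14 gave like differences of 0.92 ± 0.16, 0.93 ± 0.17 and 0.91 ± 0.17, and since these genes are nearly identical in sequence their probes may read each other's transcripts. Of 11 H2A genes 11 were higher and 7 called (median 0.380), with H2ac15 at 0.81 ± 0.15 and the dim H2ac4 at 1.46 ± 0.29. H2B genes were higher in 9 of 10 cases and 5 were called (median 0.362). H2bc3 among them had 9.56, 9.49 and 9.13 on the VAD arrays, 8.71, 8.16 and 8.02 on the VAS arrays and 8.36, 8.86 and 8.35 on the WT arrays (1.10 ± 0.20 over VAS, 2.14-fold). The 9 H4 genes were all higher and 6 were called (median 0.260). Among them H4c1 and H4c12 had nearly the same signal on each array, with differences of 0.26 and 0.25. The H2A genes H2ac11 and H2ac13 were likewise higher by 0.46 and 0.45. Whether such probe sets read shared transcripts was not tested, so the counts of histone genes may count the same signal repeatedly. H4c6 stood at 10.32, 10.24 and 10.42 on the VAD arrays and 9.68, 9.69 and 9.66 on the VAS arrays (0.65 ± 0.23), and WT array 3 at 10.23 came close to the VAD level. The linker histones H1 had the lowest class median, 0.067, with 3 of 9 called. That median depends on which genes the list holds. It includes H1f0, H1f7, H1f8, H1f10 and H1f11-ps, which are not clustered S-phase genes. The last 4 of these differed by 0.11, 0.07, 0.03 and 0.04. The clustered H1f3 and H1f6 differed by 0.19 and -0.03. H1f1 and H1f5, which are S-phase genes, were each higher by 0.55, and H1f0, the linker histone of resting cells, differed by -0.12 ± 0.08.

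**Figure D4:**
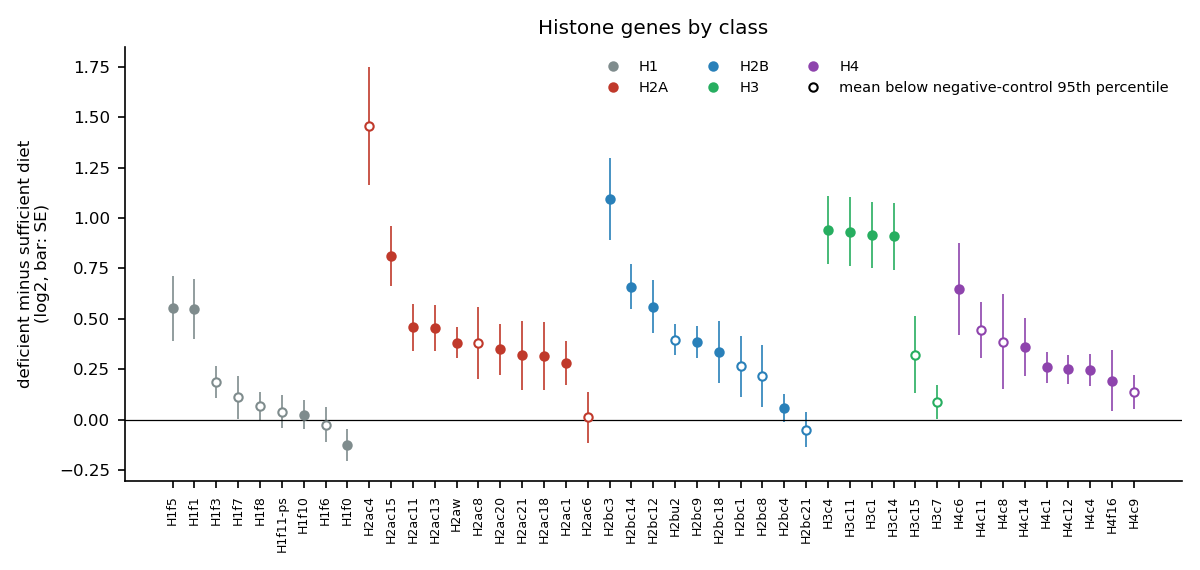
Each point is a histone gene, ordered by class along the horizontal axis, and the vertical axis is its log2 difference of the VAD minus the VAS arrays with the SE as a bar. Open points are dim genes, with 6-array means under 7.53. The 4 bright H3 genes stand between 0.91 and 0.94, and H1f0 lies below 0 at -0.12.

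Over the arrays, the median histone gene stood at 0.33, 0.37 and 0.38 on the VAD arrays, 0.03, 0.008 and -0.06 on the VAS arrays and 0.01, 0.17 and 0.08 on the WT arrays. No VAS or WT array reached a VAD array. The number of called histone genes was 21 without VAS array 3, 24 without VAS array 2, 21 without VAD array 3 and 21 when only genes above the negative controls were fitted. Of the 25, 19 were called without each of the 6 arrays in turn, among them H2bc14, H2bc3, H2ac15 and the 4 bright H3 genes. Another 27 histone probe sets were left out because the deposited tables name different genes for them. Among genes for histone variants and processing, 6 of 15 were higher and 9 lower. Called there were H2ax (0.26 ± 0.08), the variant that is phosphorylated at DNA breaks, and Lsm10 (0.46 ± 0.16), of the small ribonucleoprotein that cuts histone transcripts, and 1 was called higher without VAD array 1 or VAS array 3. Npat, the activator of histone transcription in S phase, was dim and differed by -0.21 ± 0.10.

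The H3c4 promoter is shown as that of a bright histone gene. It lies at chr13:23575513-23575812 (GRCm38.p6, plus strand, from RefSeq), and capitals mark CCAAT or ATTGG and TATAAA or its reverse complement TTTATA.
H3c4: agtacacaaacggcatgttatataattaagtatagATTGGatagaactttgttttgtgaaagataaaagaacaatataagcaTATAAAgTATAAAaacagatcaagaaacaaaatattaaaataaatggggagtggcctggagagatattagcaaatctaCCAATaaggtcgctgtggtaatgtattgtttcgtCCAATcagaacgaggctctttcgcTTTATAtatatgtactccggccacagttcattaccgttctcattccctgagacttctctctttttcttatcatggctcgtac
TTTATA began 32 bases before the start, TATAAA 168 and 161 bases, CCAAT 90 and 56 bases and ATTGG 215 bases before it. Of 39 histone genes with a promoter in the table, 24 (61.5%) held TATAAA on either strand and 30 (76.9%) CCAAT, against 15.7% and 41.1% of all genes.

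Markers of resident cardiac macrophages lay higher on the VAD diet in 16 of 20 cases, with a median of 0.227, and those of monocytes and macrophages in general in 19 of 22, with a median of 0.139. In whole tissue, a difference in the number of cells of a type and a difference in RNA per cell cannot be told apart. Among resident markers 2 were called higher and 2 lower, and 5 of the general markers were called, all higher. With pairing, 6 resident and 8 general markers were called higher. These medians rest on single VAS arrays. The median resident marker stood at 0.23, 0.11 and 0.27 on the VAD arrays and 0.23, 0.03 and -0.25 on the VAS arrays, so that VAS array 1 lay among the VAD arrays. Without VAS array 1 the medians were 0.370 and 0.354, and without VAS array 3 they were 0.080 and 0.055. The general markers called were 9 without VAS array 1 and 2 without each of VAD array 1, VAS array 2 and VAS array 3. Resident markers called higher were 5 without VAD array 2, 4 without VAS array 1 and 0 without VAD array 1, VAD array 3 or VAS array 3.

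Within these markers, single genes lay in opposite directions. Tfec, a transcription factor of the macrophage lineage, had 7.50, 7.49 and 7.44 on the VAD arrays, 7.09, 6.96 and 6.93 on the VAS arrays and 6.98, 7.24 and 7.24 on the WT arrays (0.48 ± 0.09, unadjusted p = 0.000291). Its VAD values exceeded all others, at signals just under the negative control bound. Lgals3, the lectin galectin-3 of activated macrophages, was 8.89, 9.22 and 9.05 on the VAD arrays and 8.84, 8.63 and 8.29 on the VAS arrays (0.47 ± 0.14). The Fc receptor Fcgr3 (0.61 ± 0.23) and the lysosomal Cd68 (0.36 ± 0.14, but -0.15 for the probe set that the comparison table's names alone would choose) were called higher as well, as was F13a1 (0.35 ± 0.15) among resident markers. The chemokine Ccl8 had 9.55, 9.11 and 9.54 on the VAD arrays, 9.05, 7.91 and 7.51 on the VAS arrays and 9.22, 9.66 and 8.13 on the WT arrays. It was higher on VAD than VAS by 1.24 ± 0.44 (2.36-fold), and VAS array 1 stood well above the other 2 VAS arrays. Ccl8 is in neither macrophage list and belongs to the list of chemokines, cytokines and adhesion genes. Of 40 measured members of that list 19 were higher and 21 lower, with a median of -0.003. Called there were 2, both higher, which is near the share called over all genes (4.28%). With pairing 4 were called higher and 3 lower.

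Lyve1, the hyaluronan receptor of lymphatic endothelium and of a subset of resident macrophages, was lower. Its signals were 10.19, 10.32 and 10.16 on the VAD arrays, 10.99, 11.01 and 10.64 on the VAS arrays and 10.75, 10.92 and 10.70 on the WT arrays. The VAD arrays lay below the other 6, by 0.66 ± 0.11 relative to VAS (unadjusted p = 0.000162), and the difference was between -0.78 and -0.60 with 1 array left out. Of 9 lymphatic endothelial markers 7 were lower, and Lyve1 was the only one called, against 2 with pairing. Fcna, the ficolin of tissue macrophages, had 7.36, 7.63 and 7.75 on the VAD arrays, 8.09, 7.85 and 7.92 on the VAS arrays and 8.07, 8.17 and 8.10 on the WT arrays (-0.37 ± 0.11). Retnla, a secreted product of alternatively activated macrophages and of fat, was 8.39, 8.29 and 8.91 on the VAD arrays, 10.16, 9.72 and 9.09 on the VAS arrays and 9.43, 10.13 and 10.43 on the WT arrays. All 3 genes had VAD arrays below every VAS and WT array, Retnla by 1.13 ± 0.31 relative to VAS (unadjusted p = 0.00506).

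Interferon response genes were higher in 31 of 38 cases (median 0.100), and 2 were called, against 7 with pairing. Ifi27l2a, an interferon-induced mitochondrial protein, had 9.95, 10.22 and 10.53 on the VAD arrays, 9.86, 9.09 and 9.36 on the VAS arrays and 9.40, 9.21 and 9.77 on the WT arrays (0.80 ± 0.22, unadjusted p = 0.00501). Psmb9, a subunit of the immunoproteasome, was higher by 0.33 ± 0.12, and differed by -0.10 for the probe set chosen by the comparison table's names alone. The count called was 1 without VAD array 3, VAS array 2 or VAS array 3. The list median was 0.036 without VAS array 2 and 0.184 without VAS array 1, and the WT arrays stood at 0.54, 0.28 and -0.03 relative to VAS. Markers of lymphocytes were all dim, and 0 of 19 were called, against 1 without VAD array 1, VAD array 2, VAS array 1 or VAS array 2.

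Vascular endothelial markers lay lower on the VAD diet in 17 of 20 cases, with a median of -0.145 (-0.094 without VAD array 2). Called were 2, both lower, and with pairing 7. Aqp1, the water channel of capillary endothelium, had log2 signals of 10.32, 10.33 and 10.12 on the VAD arrays, 11.02, 11.11 and 10.84 on the VAS arrays and 11.31, 11.30 and 10.58 on the WT arrays. The VAD arrays lay below the other 6, by 0.73 ± 0.18 relative to VAS (unadjusted p = 0.00258, and 4.49e-05 with pairing). Cd34, a sialomucin of capillaries, was lower by 0.31 ± 0.13. The median endothelial marker stood at -0.07, -0.28 and -0.16 on the VAD arrays, 0.04, -0.12 and 0.09 on the VAS arrays and 0.29, 0.33 and -0.11 on the WT arrays, so VAS array 2 lay among the VAD arrays. The count called was 1 without VAD array 3, VAS array 1 or VAS array 3. Vascular growth factors and their receptors were lower in 27 of 35 cases (median -0.118, and -0.052 without VAD array 2). Their groups were without overlap in 8 cases and 0 were called, against 10 with pairing and 2 without VAS array 2.

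Smooth muscle and pericyte markers were lower in 14 of 17 cases (median -0.089, and -0.042 without VAS array 1), with 4 called lower and 1 higher. Acta2, the smooth muscle actin, had 11.35, 11.19 and 10.96 on the VAD arrays, 12.43, 11.75 and 13.15 on the VAS arrays and 10.89, 11.85 and 10.89 on the WT arrays. The VAD arrays lay below the VAS arrays by 1.27 ± 0.35 (unadjusted p = 0.00488), and by 0.92 without VAS array 3, and they overlapped WT. The calponin Cnn1 (dim, -0.22 ± 0.08) and the pericyte genes Pdgfrb (-0.23 ± 0.09) and Rgs5 (-0.20 ± 0.08) were the other called genes that were lower, and Des, the desmin of all muscle, was higher by 0.27 ± 0.11. Smooth muscle markers called lower were 5 without VAD array 2, 3 without VAS array 3 and 2 without each of the other 4 arrays. Matrix genes other than collagens were lower in 38 of 54 cases (median -0.075, but -0.126 without VAD array 1 and -0.033 without VAD array 2), with 10 groups without overlap. Called lower were 2, against 10 with pairing: Sparc (-0.32 ± 0.11), a collagen-binding matricellular protein, and the proteoglycan Ogn (-0.24 ± 0.10). Tgfb1 was called higher (0.23 ± 0.08). Without VAD array 1 the count called lower was 4, without VAS array 2 it was 3, without VAD array 3 or VAS array 3 it was 1, and without VAD array 2 or VAS array 1 it was 0.

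Genes of the sarcoplasmic reticulum and calcium handling lay lower on the VAD diet in 30 of 36 cases, with a median of -0.083. Of these genes 4 were called and 7 had groups without overlap, all lower. Casq2, the calsequestrin that buffers calcium in the sarcoplasmic reticulum, had 10.54, 10.53 and 10.45 on the VAD arrays, 10.97, 10.88 and 11.16 on the VAS arrays and 11.41, 11.10 and 11.14 on the WT arrays. The VAD arrays lay below the other 6, by 0.50 ± 0.10 relative to VAS (0.71-fold, unadjusted p = 0.000724), and the difference was between -0.56 and -0.42 with 1 array left out. Atp2a2, the calcium pump SERCA2, was 13.54, 13.39 and 13.41 on the VAD arrays and 13.60, 13.57 and 13.73 on the VAS arrays (-0.18 ± 0.08). The calmodulin kinase genes Camk2d (-0.20 ± 0.08) and Camk2a (-0.20 ± 0.08) were called too. The count called was 2 without VAD array 1, VAD array 2, VAS array 1 or VAS array 3.

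Potassium channel genes were lower in 19 of 27 cases, with a median of -0.087 (-0.153 without VAD array 1), and for the 12 members above the negative controls it was -0.269. Of the channels 7 were called and 9 had groups without overlap, all lower. Kcnj11, the pore of the ATP-sensitive channel, had 8.59, 8.57 and 8.62 on the VAD arrays, 8.96, 8.93 and 9.04 on the VAS arrays and 8.73, 8.38 and 8.35 on the WT arrays (-0.38 ± 0.10, unadjusted p = 0.00374). The VAD arrays lay below all VAS arrays and among the WT arrays. The inward rectifiers Kcnj2 (-0.36 ± 0.11) and Kcnj5 (-0.37 ± 0.13), the leak channel Kcnk3 (-0.38 ± 0.14) and the subunit Kcne1 (dim, -0.42 ± 0.14) were among those called. The median channel stood at -0.14, -0.12 and -0.16 on the VAD arrays, -0.01, 0.007 and 0.02 on the VAS arrays and 0.02, -0.10 and -0.13 on the WT arrays. Between 4 and 7 channels were called with 1 array left out, the fewest without VAD array 2, and Kcnj11, Kcnj2 and Kcne1 were among the 4 called every time.

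Of 26 sodium, calcium and pacemaker channels and connexins 19 were lower. Adrenergic, muscarinic and adenylyl cyclase genes were lower in 24 of 32 cases (median -0.070), and 5 were called lower and 1 higher. Chrm2, the muscarinic receptor that slows the heart, was 10.03, 9.74 and 10.04 on the VAD arrays, 10.39, 10.49 and 10.81 on the VAS arrays and 10.77, 10.32 and 9.72 on the WT arrays (-0.63 ± 0.23). Its VAD arrays lay below the VAS arrays and within the range of the WT arrays. Prkar2a, a regulatory subunit of protein kinase A, was lower by 0.50 ± 0.15, and the cyclase Adcy5 and the catalytic subunit Prkaca were called lower as well. The count called lower was 1 without VAD array 2, 2 without VAS array 1 or VAS array 3 and 3 without VAD array 3 or VAS array 2. Of 32 cardiac transcription factors 23 were lower, and Mef2a (-0.34 ± 0.12) was the called member, which it was not without VAD array 2, VAD array 3 or VAS array 1. With pairing 4 of the factors were called lower. Sarcomere and Z-disc genes were split, 20 higher and 24 lower of 44.

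**Figure D5:**
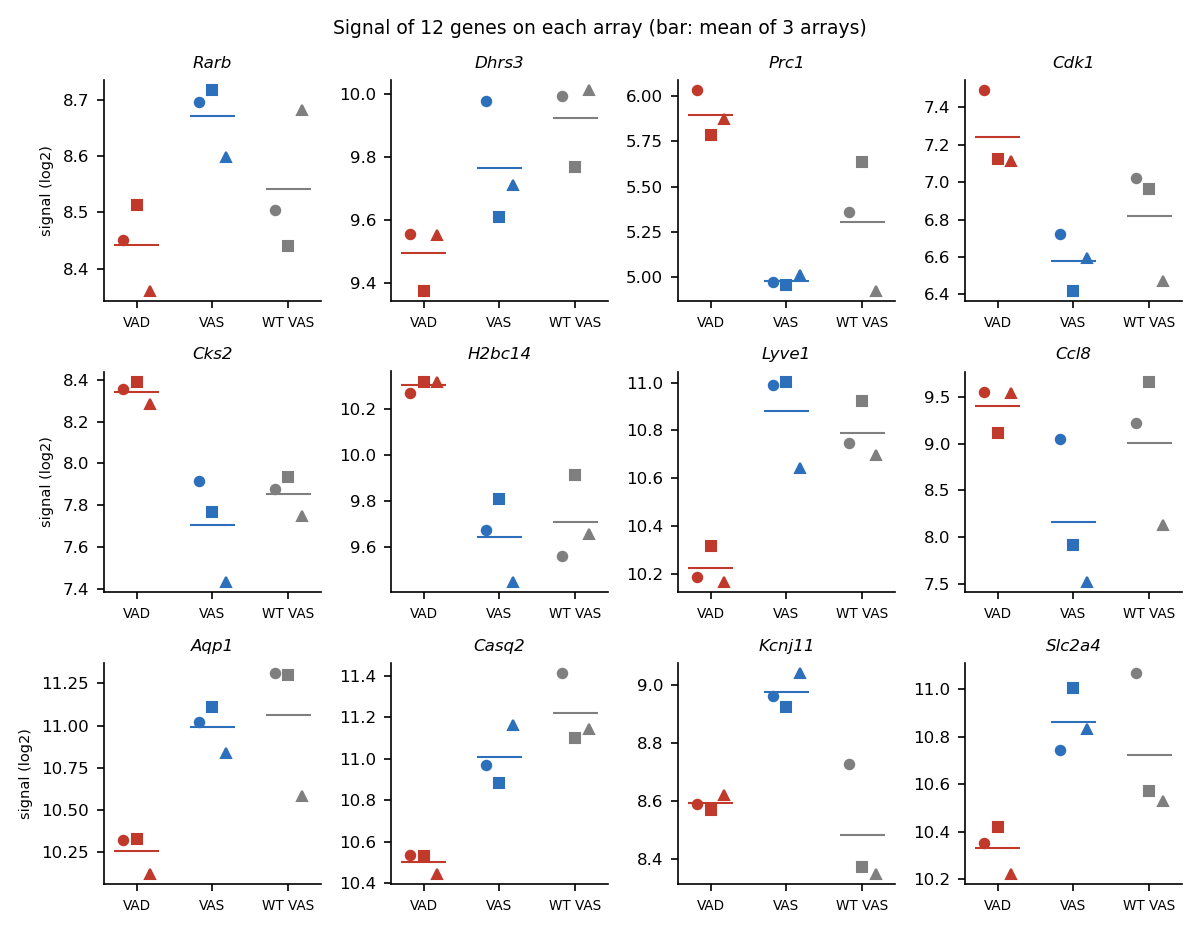
Each panel is a gene and each symbol an array (circle 1, square 2, triangle 3), with VAD arrays left, then VAS and WT arrays. The vertical axis is the log2 signal, and bars are means of 3 arrays. In all 12 panels the VAD and VAS arrays do not overlap, and the axes do not start at 0 because the scale is logarithmic. The 12 genes were chosen with their values known, so their separation is not a result. Over all genes 9.49% had groups without overlap.

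Of the glucose genes, 23 of 36 were higher and 13 lower, with a median of 0.046 that turned to -0.010 without VAD array 2 and was 0.078 without VAS array 1. Called were 2 higher and 4 lower, against 4 and 6 with pairing. Without VAD array 3 the counts were 4 and 2, and without VAD array 1, VAD array 2 or VAS array 3 they were 1 and 3. The 4 that were lower include the glucose transporters GLUT4 and GLUT1. Slc2a4, for the insulin-responsive GLUT4, had 10.35, 10.42 and 10.22 on the VAD arrays, 10.74, 11.01 and 10.83 on the VAS arrays and 11.07, 10.57 and 10.53 on the WT arrays (-0.53 ± 0.14, 0.69-fold, unadjusted p = 0.00404). Its VAD arrays lay below the other 6. Slc2a1, for GLUT1, was lower by 0.29 ± 0.11, the brain-type glycogen phosphorylase Pygb by 0.29 ± 0.10 and the lactate transporter Slc16a1 by 0.30 ± 0.12. Pgam2, the muscle phosphoglycerate mutase, was higher, at 12.80, 12.83 and 12.82 on the VAD arrays and 12.61, 12.53 and 12.42 on the VAS arrays (0.30 ± 0.08). Txnip, which binds thioredoxin and promotes removal of glucose transporters from the cell surface, had 11.86, 12.05 and 11.84 on the VAD arrays, 12.52, 12.37 and 12.18 on the VAS arrays and 11.90, 12.01 and 12.05 on the WT arrays. It was lower on VAD than VAS by 0.44 ± 0.10 (unadjusted p = 0.0014) and overlapped WT. Txnip is not among the 36 glucose genes and is counted with the antioxidant genes. Among insulin and IGF signalling genes 27 of 34 were lower (median -0.093, and -0.055 without VAD array 3), and the receptor Insr was called lower (-0.37 ± 0.16) and Igf1 higher (0.23). With pairing 5 were called lower and 2 higher, and with 1 of the 6 arrays left out Insr was called without VAD array 1 alone and Igf1 without VAD array 2 or VAS array 1 alone.

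Respiratory complex I genes were all above the negative controls and lay higher in 30 of 36 cases, with a median of 0.105. Of these 4 were called, all higher, against 11 with pairing, and 11 had VAD arrays wholly above VAS arrays. Ndufb10 had 10.82, 10.79 and 10.87 on the VAD arrays and 10.54, 10.50 and 10.33 on the VAS arrays (0.37 ± 0.13). The other called subunits were Ndufb7 (0.19 ± 0.06), Ndufa7 (0.25 ± 0.10) and Ndufs5 (0.27 ± 0.12). The median was 0.044 when the arrays were quantile-normalized again, and 1 subunit was called without VAD array 3 or VAS array 3 and 2 without VAD array 2. Complexes III and IV and ATP synthase were higher in 32 of 42 cases (median 0.060, and 0.015 after quantile normalization again). Citric acid cycle and pyruvate dehydrogenase genes were lower in 24 of 33 cases (median -0.047, but -0.089 without VAD array 1 and -0.010 without VAD array 3), with Pdpr (-0.31 ± 0.08), a subunit of the phosphatase that activates pyruvate dehydrogenase, the kinase Pdk1 (-0.22 ± 0.09) and Sdha (-0.26 ± 0.11) of succinate dehydrogenase called. With pairing 6 were called lower, and without VAD array 1, VAD array 3, VAS array 1 or VAS array 3 it was 1. Fatty acid genes were lower in 35 of 45 cases (median -0.051, and -0.013 without VAD array 3). Lpl alone was called lower and the thioesterase Acot1 (0.36 ± 0.15) alone higher, which is near the share called over all genes (4.28%). With pairing 2 were called higher, and neither gene was called without VAD array 3, VAS array 2 or VAS array 3. A separate list held 29 energy nuclear receptors with PGC-1 genes, of which 10 were higher and 19 lower. Its median was -0.043, and -0.002 without VAD array 2. The receptor Ppara (-0.32 ± 0.12) and the coactivator Ppargc1b (-0.31 ± 0.10) were its 2 called members, both lower. That count is near the share called over all genes (4.28%), and with pairing 3 were called lower. Neither gene was called without VAD array 2. Of these 2, Ppargc1b alone was called without VAD array 3, VAS array 1 or VAS array 2, and Ppara alone without VAS array 3.

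Hmox1, the heme oxygenase, had 9.69, 9.56 and 9.48 on the VAD arrays, against 9.36, 8.91 and 8.78 on the VAS arrays (0.56 ± 0.16, unadjusted p = 0.00577). The groups did not overlap, and VAS array 1 came nearest. Hmox1 was 1 of 3 antioxidant genes called higher. Txnip, given above, was the 1 antioxidant gene called lower, and was so without each of the 6 arrays in turn. Of 39 antioxidant genes measured 24 were higher and 15 lower. The count called higher was 1 without VAD array 2 or VAS array 3.

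Red blood cell markers lay higher in 15 of 18 cases, with a median of 0.334, through 1 array. The median marker stood at 0.01, 0.79 and -0.006 on the VAD arrays, 0.03, 0.03 and -0.06 on the VAS arrays and -0.16, -0.63 and -0.44 on the WT arrays. Without VAD array 2 the list median was 0.004. Called were 3, with Bpgm, the enzyme that makes 2,3-bisphosphoglycerate, at 9.04, 10.07 and 9.26 on the VAD arrays and 8.92, 8.98 and 8.80 on the VAS arrays (0.56 ± 0.23). Its VAD array 2 lay far above the other 5. Without VAD array 2, VAS array 2 or VAS array 3 the count called was 1. The part of these markers in other results was not tested.

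Adipocyte markers were higher in 14 of 16 cases (median 0.206), and 4 were called, all higher. Car3, a carbonic anhydrase abundant in fat and slow muscle, had 9.36, 9.36 and 7.67 on the VAD arrays, 6.66, 6.67 and 7.12 on the VAS arrays and 6.21, 9.42 and 8.04 on the WT arrays. It was the gene with the largest difference of all, 1.98 ± 0.72 (3.95-fold, unadjusted p = 0.0212). VAD array 3 was nearer to the VAS arrays, and WT array 2 lay above all VAD arrays. The adipokine Adipoq was dim, at 6.30, 6.0 and 5.60 on the VAD arrays, 4.53, 5.16 and 5.18 on the VAS arrays and 5.05, 6.19 and 5.44 on the WT arrays (1.01 ± 0.30). The markers stood at 0.18, 0.46 and 0.03 on the VAD arrays and -0.10, -0.01 and 0.09 on the VAS arrays, with overlap, and the median was 0.062 without VAD array 2. The count called was 6 without VAD array 3, 2 without VAD array 2 and 1 without VAD array 1, VAS array 1 or VAS array 2.

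Genes of no list were also among those with the lowest p-values at signals above the negative controls. Pink1, the kinase that marks damaged mitochondria, was 11.04, 11.05 and 10.99 on the VAD arrays, 11.32, 11.39 and 11.33 on the VAS arrays and 11.39, 11.17 and 11.21 on the WT arrays (-0.32 ± 0.07, unadjusted p = 0.00168). Its VAD arrays lay below the other 6. Zmpste24, the protease that matures lamin A, had 8.39, 8.15 and 8.21 on the VAD arrays and 8.65, 8.84 and 8.70 on the VAS arrays (-0.48 ± 0.11). Tmem41b, a lipid scramblase of the endoplasmic reticulum, was 9.94, 10.15 and 9.92 on the VAD arrays, 10.33, 10.53 and 10.53 on the VAS arrays and 10.27, 10.26 and 10.26 on the WT arrays (-0.46 ± 0.09, unadjusted p = 0.000365). All of its VAD values were below the other 6. The RNA-binding protein Celf1 (-0.35 ± 0.08), the thioredoxin-related Tmx2 (-0.38 ± 0.09) and the endocytic Ehd4 (-0.34 ± 0.09) were lower too, without overlap.

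Higher on VAD among these was Igbp1, a regulator of type 2A phosphatases, at 10.35, 10.21 and 10.20 on the VAD arrays, 9.72, 9.81 and 9.47 on the VAS arrays and 9.87, 10.23 and 10.25 on the WT arrays (0.59 ± 0.12). VAD and VAS did not overlap, and 2 of the WT arrays lay among the VAD arrays. Cct4, a subunit of the chaperonin that folds actin and tubulin, had 10.41, 10.42 and 10.48 on the VAD arrays and 9.96, 10.14 and 9.95 on the VAS arrays (0.42 ± 0.10). The tRNA methyltransferase Trmt1 (0.34 ± 0.08) and Gpatch2l (0.33 ± 0.07) were higher without overlap. Dim genes that were lower include the axonemal dynein Dnah7b (-0.47 ± 0.08), Heatr5b (-0.88 ± 0.15), the estrogen sulfotransferase Sult1e1 (-1.10 ± 0.30) and the precursor of the muscle microRNA Mir1a-2 (-0.85 ± 0.31), whose signals of 3.89 to 4.05 on the VAD arrays and 4.47 to 5.20 on the VAS arrays lie near the median of the negative controls (4.54).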

How the data were processed

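RNA of left ventricles was measured on 9 Affymetrix mouse arrays, and the 3 VAD and 3 VAS arrays labelled Lrat-/- were compared. The authors deposited log2 signals per probe set and sample. RMA, R 3.1.2 and the genome build mm8 are named in the submitters' processing notes without their roles, and RMA in general subtracts background, quantile-normalizes arrays and summarises probes. The log2 scale was read from the values. The authors also deposited a table that gives, per the file headers, pairwise ratios and p-values, with no statement of how they were computed. A further deposited table has 9 value columns headed by scan codes, and these columns were not used.

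Of 35556 probe sets, 6546 control probe sets, 2903 without a gene and 2408 that the deposited tables name differently were left out. The 23699 others gave 21803 genes by the symbol of the comparison table, brought up to date through RefSeq (21430 current symbols, 1382 synonyms, 887 kept as written). Of several probe sets of a gene, the one with the highest mean was used. Group means were fitted to the 9 arrays with limma 3.58.1 in R 4.3.3 (lmFit, eBayes), two-sided, and p-values were adjusted by Benjamini-Hochberg over all genes, with a threshold of 0.05. Values after ± are its standard errors. Precision is limited by the 3 arrays of a group. The fit was tested on simulated data. Python 3.11.15, numpy 2.4.6, pandas 2.3.3 and, for plots, matplotlib 3.10.9 were used besides.

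The replicate numbers recur in both diets. Deviations from the group mean correlated at 0.213 to 0.264 over genes for the 3 same-numbered pairs and at -0.142 to -0.0707 for the 6 others, so the numbers were taken to pair the samples. The deviations of a group cancel out for each gene, so positive same-numbered values by themselves push the others to negative values. Same-numbered WT arrays gave -0.0932, 0.0095 and -0.1448 with VAS and 0.1298, -0.0499 and 0.0121 with VAD. The pairing comes from the values, since the labels do not say what a number marks. Counts with pairing rest on that choice, made on the same values.

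The comparison, the lists and the genes were chosen with earlier results of these data known. Named were Lrat, the genes with the lowest p-values (10 per direction over all genes and 15 among those above the 95th percentile of the negative controls) and the 8 largest differences per direction among called genes, each with groups that do not overlap. Any member of the retinoid and histone lists and up to 6 members of each other list by p-value could be named too. Promoters and motifs are from RefSeq, GRCm38.p6. Alternatives were other samples in the model, the replicate block, leaving out each array, filters on dim genes, normalizations, probe set rules, array weights and variance models.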

Additional observations from a re-analysis of the deposited data

How the results depend on the processing

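Under all 21 alternatives run, the number of genes past an adjusted p of 0.05 was 0. The count of genes higher at an unadjusted p under 0.05 (475) was 212 with only genes above the negative controls, 957 with the 6 arrays and the replicate block and 808 by the authors' deposited p-values. Leaving out 1 of the 9 arrays gave 316 to 692. The count lower (458) was 719 with only the 6 arrays in the model, 219 with only genes above the negative controls, 1011 with the 6 arrays and the replicate block and 932 by the authors' deposited p-values, and 316 to 639 with 1 array left out. Replication genes called (3) were 1 above the negative controls, 6 with the 6 arrays and the replicate block and 1 to 5 with 1 array left out. Mitosis genes called (25) were 10 with a mean of log2 6 or more and 1 above the negative controls, and 18 to 29 with 1 array left out. The cause of these moves was not tested, except that the filters test fewer members. With probe sets named by the comparison table alone, the sign turned for Psmb9 (-0.0951) and Cd68 (-0.1493), for which other probe sets were then chosen. Histone genes called (25) were 21 to 30 under all alternatives run. The replicate block in the 9-array fit gave 507 higher and 518 lower, with 3 replication, 26 mitosis and 28 histone genes. The fit of the 6 arrays alone with the replicate block and the alternative names of probe sets were chosen after seeing the data. Signals within the range of the negative controls limit what can be said of 62 mitosis genes.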

Other observations

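Clock genes lay lower on the VAD diet in 15 of 21 cases, with a median of -0.121 that ranged from -0.200 (without VAD array 2) to -0.075 (without VAD array 1). At an unadjusted p under 0.05 by limma 0 were called, against 1 higher and 4 lower with pairing and 1 lower without VAD array 2 or VAD array 3. Sterol and fatty acid synthesis genes were split, 23 higher and 22 lower, and the called members were the fatty acid synthase Fasn and the elongase Elovl6, both higher. Fasn had 7.95, 8.58 and 7.60 on the VAD arrays and 7.39, 7.53 and 7.69 on the VAS arrays (0.50 ± 0.21), with overlap between VAD array 3 and VAS array 3. Elovl6 was dim and differed by 0.27 ± 0.11. With 1 of the 6 arrays left out, Fasn was called without VAD array 3 or VAS array 3 alone and Elovl6 without VAD array 1 alone, and the count of synthesis genes called higher was 0 without VAD array 2 or VAS array 2. With pairing 3 were called higher, Elovl6 but not Fasn among them, and 2 lower. Heat shock genes were higher in 15 and lower in 20 of 35 cases, and the called member was Hspa1l, at 8.03, 8.26 and 8.12 on the VAD arrays, 7.66, 7.73 and 7.32 on the VAS arrays and 7.84, 7.50 and 8.19 on the WT arrays (0.57 ± 0.17). Its VAD and VAS arrays did not overlap, and WT array 3 reached the VAD level. Heat shock genes called higher were 2 without VAD array 1, VAD array 3 or VAS array 1, and with pairing 3 were called higher and 3 lower.

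Among 29 immediate early genes 15 were higher and 14 lower, with a median of 0.002 (-0.018 without VAS array 3 and 0.027 without VAS array 1), and 0 had groups without overlap. Collagens differed little, with a median of -0.008 over 26 genes. In the renin-angiotensin and natriuretic peptide list 14 of 20 genes were lower (median -0.113, and -0.069 without VAS array 3), and Atp6ap2, the receptor of renin and prorenin, had 8.0, 8.02 and 7.91 on the VAD arrays and 8.47, 8.13 and 8.35 on the VAS arrays (-0.34 ± 0.10) without overlap. Among red blood cell markers Isg20, an exonuclease that interferon also induces, was 10.58, 11.30 and 10.76 on the VAD arrays and 10.42, 10.43 and 9.99 on the VAS arrays (0.60 ± 0.19).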
